A study of Mus musculus with 6 samples.

Results

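Thyrotropin is the pituitary hormone that drives the thyroid gland. The 5 genes described here are its 2 subunit genes, TSHB and CGA, and 3 regulators of the thyrotroph, the cell that makes it: TRHR, GATA2 and EYA3. They were chosen by symbol, as 5 rows of the 16736 in the deposited count table, and all 5 passed the filter on low counts that left 13873 rows to be tested. The libraries are poly(A)-selected bulk RNA-seq of whole pituitaries of male mice, 3 labelled HFD and 3 labelled RD, taken after 16 h of fasting and 4 h of feeding. The series title sets them in the context of obesity. RD and HFD stand unexplained in the labels, and no source used here gives strain, age, time on diet or pooling of glands. No label ties a replicate to an animal of its own, so the spread behind each p-value may be technical.

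Thyrotropin is a glycoprotein made of an alpha subunit, which it shares with the gonadotropins, and a beta subunit that gives it its specificity. Thyrotropin-releasing hormone from the hypothalamus acts on a Gq-coupled receptor of the thyrotroph to raise secretion and transcription of both subunits, and thyroid hormone represses both. In mice the transcription factors POU1F1 and GATA2 act together on the Tshb promoter. EYA3 is a coactivator that, with TEF, turns on Tshb in the pars tuberalis of mice and sheep under long days.

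Of the 5 genes, 4 were higher in HFD than in RD pituitaries: TSHB 2.06-fold, GATA2 1.48-fold, TRHR 1.44-fold and CGA 1.29-fold. EYA3 stood at nearly the same level in both groups. Genes with an adjusted p under 0.05 by edgeR's quasi-likelihood test (Benjamini-Hochberg over all tested rows) are referred to as called. Of all tested rows 10.5% were called, 5.87% higher and 4.61% lower in HFD, so 4 of 5 lies above that background, although the genes were picked with earlier results of these data known. The median log2 change was 0.53 over the 5 genes and -0.0023 over all tested rows. The 4 called genes also had no overlap between the groups, as did 16.9% of all tested rows in the same direction. In a whole gland, more thyrotrophs and more RNA per thyrotroph cannot be told apart.

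The promoter windows of both subunit genes are printed because the subunits rose together and are the genes on which GATA2, POU1F1 and thyroid hormone receptors are known to act. Each line gives the 250 bases before a RefSeq transcript start on GRCm38 (mm10), 5′ to 3′ on the strand of the gene. TSHB spans chr3:102782715-102782964 on the minus strand and CGA chr4:34893529-34893778 on the plus strand. Capitals mark a GATA factor core (AGATAA) in TSHB and a nuclear receptor half-site (AGGTCA) in CGA.

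TSHB: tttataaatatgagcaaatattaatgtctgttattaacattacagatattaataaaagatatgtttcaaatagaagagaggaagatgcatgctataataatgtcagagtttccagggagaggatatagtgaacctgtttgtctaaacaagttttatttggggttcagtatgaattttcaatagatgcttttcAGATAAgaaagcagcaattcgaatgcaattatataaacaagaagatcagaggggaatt

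CGA: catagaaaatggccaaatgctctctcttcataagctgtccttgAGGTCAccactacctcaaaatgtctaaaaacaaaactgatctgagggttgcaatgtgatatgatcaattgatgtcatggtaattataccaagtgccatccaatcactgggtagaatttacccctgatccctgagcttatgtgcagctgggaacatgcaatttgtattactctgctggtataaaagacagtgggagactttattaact

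The GATA core began 58 bases before the start of TSHB, and the half-site 207 bases before the start of CGA. Motifs were searched on both strands, and none of the matches found overlapped another. The GATA core was searched in 4 spellings (AGATAA, then with a final G as AGATAG, and both again with an initial T), of which at least 1 was present in 26.5% of 32851 promoter windows of this length. The half-site AGGTCA was present in 4607 of those windows. The POU1F1 core ATGNATA (7.9% of windows), the PITX core TAATCC (6.3%) and the cAMP response element TGACGTCA (1.5%) matched neither window. The same held for the TEF D-box, searched as TTATGNAA and with C in place of its inner T (3.6% of windows). Spellings other than those given were not searched, so near matches to these motifs were not counted. RefSeq windows were at hand for 4 of the 5 genes, with 2 for GATA2 and 1 for EYA3, and none of these motifs matched in the GATA2 or EYA3 windows. A match describes the letters of the window and is not evidence of binding.

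TSHB encodes the beta subunit (Tshb, ENSMUSG00000027857.10, chromosome 3 of mm10, 102775465 to 102782718, minus strand). It held 4127, 4325 and 4150 reads in HFD replicates 1, 2 and 3, against 1542, 2471 and 2810 reads in RD replicates 1, 2 and 3. Scaled to library size with TMM factors, these were 286, 294 and 281 CPM (reads scaled to a common library total) in HFD and 94.3, 161 and 162 CPM in RD. The HFD libraries lay close together (coefficient of variation 2.31%) and all above RD, while the RD libraries spread by 27.9%, with replicate 1 far below the other two. The log2 change was 1.04 ± 0.17 (SE; 95% interval 0.67 to 1.42, adjusted p = 0.0061 by edgeR), which ranked 253 of 13873 by p and exceeded in size 97.5% of tested rows. Without RD replicate 1 it was 0.82 ± 0.07 and still called. The gene lies within the annotated span of TSPAN2, a tetraspanin gene on the opposite strand, but shares 0 exonic bases with it. TSPAN2 itself was at 104 ± 9.01 CPM in HFD and 97.4 ± 2.84 CPM in RD (SD, n = 3 each) and was not called (adjusted p = 0.49).

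**Figure D1:**
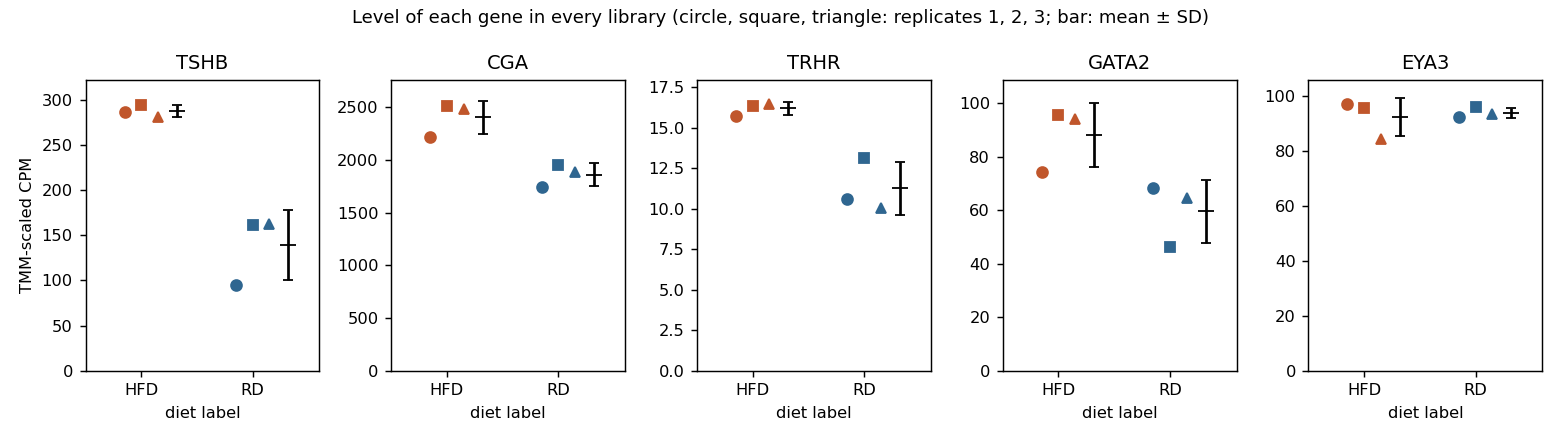
TMM-scaled CPM (y axis, from 0) of TSHB, CGA, TRHR, GATA2 and EYA3 in the 3 HFD and 3 RD libraries, with circles, squares and triangles for replicates 1, 2 and 3 and a bar for mean ± SD. The HFD points lie above the RD points for the first 4 genes and among them for EYA3, and RD replicate 1 is the lowest TSHB library at 94.3 CPM.

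RD replicate 1 also differed from the other RD libraries in transcripts of the melanotroph, the cell of the intermediate lobe. POMC, the precursor of corticotropin and melanotropin, was at 5792, 13677 and 11155 CPM in HFD replicates 1, 2 and 3 and at 9447, 5526 and 5537 CPM in RD replicates 1, 2 and 3. PAX7, a melanotroph transcription factor, was at 39.3, 98.0 and 93.2 CPM in HFD and at 103, 55.0 and 60.6 CPM in RD. Both were thus high in RD replicate 1 and low in HFD replicate 1. Within HFD, TSHB was at 286 CPM in replicate 1 and 294 CPM in replicate 2, where POMC differed most. Within RD, TSHB was lowest in replicate 1 (94.3 CPM, against 161 and 162 CPM), where POMC and PAX7 were highest. The part of these transcripts in the TSHB result was not tested.

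CGA encodes the alpha subunit (Cga, ENSMUSG00000028298.10, chromosome 4, 34893779 to 34907370, plus strand). It was at 2223, 2514 and 2482 CPM in HFD and at 1741, 1953 and 1888 CPM in RD, so the groups were separate but by a narrower relative margin than for TSHB. Its log2 change was 0.37 ± 0.07 (95% interval 0.23 to 0.52, adjusted p = 0.0082 by edgeR). CGA was no longer called without HFD replicate 2 (adjusted p = 0.053 by edgeR) or HFD replicate 3 (adjusted p = 0.055). Gonadotrophs make this subunit too, so its level is a sum over both cell types. The last exon shares 305 bases with the antisense transcript Platr9. No source used here says whether counting used strand, so reads there cannot be assigned with certainty.

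The alpha subunit pairs with 3 beta subunits: TSHB for thyrotropin, LHB for luteinizing hormone and FSHB for follicle-stimulating hormone. TSHB was higher in HFD while LHB (log2 change -0.36 ± 0.10, adjusted p = 0.046 by edgeR) and FSHB (-0.39 ± 0.07, adjusted p = 0.0092) were lower. Within each library, the log2 ratio of TSHB to CGA reads was -2.96, -3.10 and -3.15 in HFD replicates 1, 2 and 3 and -4.21, -3.60 and -3.54 in RD replicates 1, 2 and 3. TSHB thus rose more than its partner in these libraries, with a difference of 0.72 between group means. The p (0.10, two-sided exact permutation test, also 0.10 adjusted over 3 ratios) is the smallest that 3 against 3 libraries can give, so the design cannot pass 0.05.

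Against the other beta subunits the shift was larger. The log2 ratio of TSHB to LHB reads was 0.47, 0.09 and 0.11 in HFD and -1.69, -0.99 and -1.01 in RD. That of TSHB to FSHB was -1.41, -1.27 and -1.21 in HFD and -3.24, -2.50 and -2.60 in RD. Between the groups both ratios moved further than that to CGA. The differences between group means were 1.46 for LHB and 1.48 for FSHB, which correspond to 2.74-fold and 2.79-fold. Neither pair of groups overlapped, and p was again 0.10 in both exact permutation tests. By edgeR, LHB missed the threshold in each of the 6 fits with 1 library left out and with upper-quartile or library-size scaling (adjusted p up to 0.12). FSHB missed it without HFD replicate 2 or 3 (up to 0.052).

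**Figure D2:**
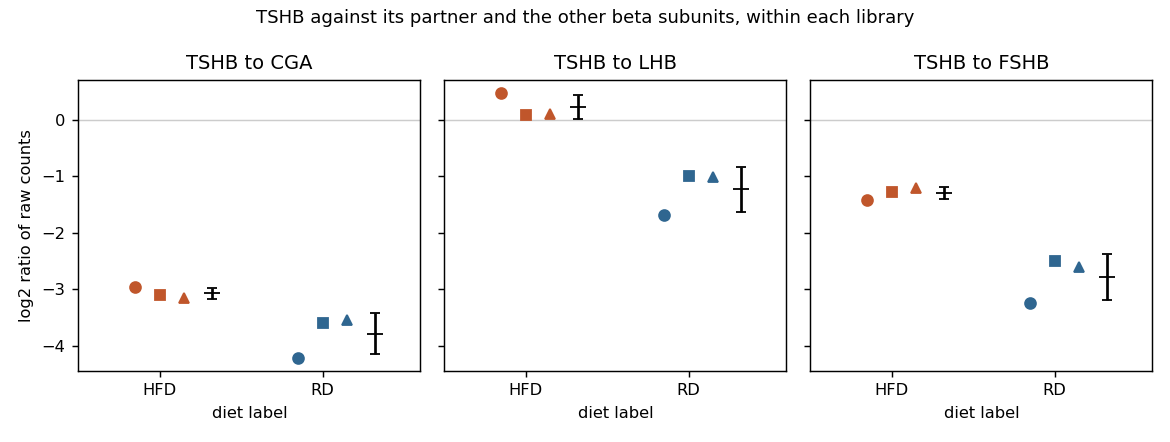
Log2 ratio of raw TSHB reads to CGA, LHB and FSHB reads (y axis) within each of the 3 HFD and 3 RD libraries, with symbols for replicates 1 to 3 and a bar for mean ± SD. In each panel the HFD libraries lie above the RD libraries, and RD replicate 1 is the lowest, at -4.21, -1.69 and -3.24.

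To compare levels between genes, CPM were divided by the length of the longest coding transcript in GENCODE M21 (605 bases for TSHB, 707 for CGA, 678 for LHB and 1600 for FSHB). CGA was the most abundant at 3404 ± 225 CPM per kilobase in HFD and 2632 ± 154 in RD (SD, n = 3 each). On this scale TSHB made up 37.7%, 36.3% and 37.0% of the 3 beta subunits in HFD and 13.4%, 20.4% and 19.6% in RD. FSHB made up 34.5% ± 3.03 in HFD and 45.5% ± 2.22 in RD, and LHB 28.4% ± 3.62 in HFD and 36.7% ± 1.76 in RD. The sum of the 3 was 1282 ± 47.3 CPM per kilobase in HFD and 1279 ± 104 in RD, and the groups overlapped. On this scale the composition of the beta subunits thus shifted towards TSHB at a like total. The like total does not hold in CPM without division by length, where FSHB weighs more. Mean CPM of FSHB were 708 in HFD and 929 in RD. Those of LHB were 247 in HFD and 317 in RD, and those of TSHB 287 in HFD and 139 in RD.

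The ratio of the alpha subunit to that total was 2.51, 2.66 and 2.80 in HFD and 2.12, 2.12 and 1.95 in RD, without overlap. These shares, the total and the ratio depend on the annotated lengths, were computed after the values were seen and were not tested. By group mean on this scale the order was CGA, TSHB, FSHB, LHB in HFD and CGA, FSHB, LHB, TSHB in RD. In HFD, TSHB and FSHB (474 ± 11.0 and 442 ± 35.2 CPM per kilobase) had overlapping ranges. Set against LHB on this scale, TSHB was the higher of the pair in all 3 HFD libraries (474 ± 11.0 against 365 ± 53.7 for LHB) and the lower in all 3 RD libraries (230 ± 64.2 against 468 ± 16.8 for LHB).

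**Figure D3:**
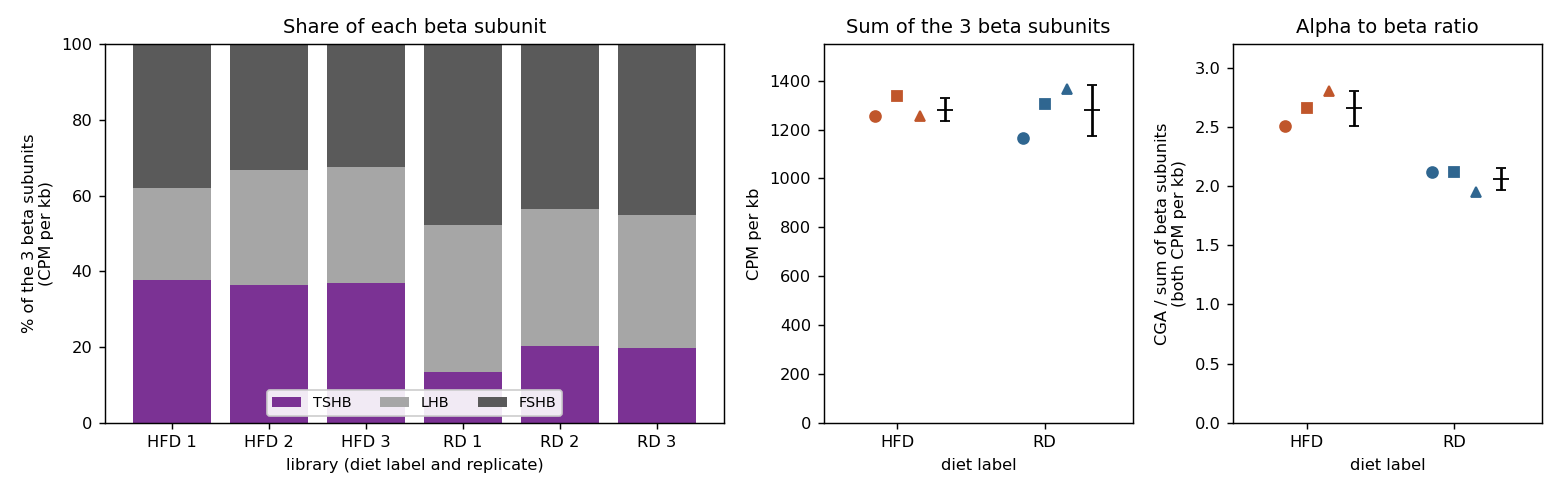
Left, share of TSHB, LHB and FSHB among the 3 beta subunits in each library (% of CPM per kilobase); middle, their sum; right, CGA divided by that sum, with symbols for replicates 1 to 3 and bars for mean ± SD. TSHB takes 36.3% to 37.7% in HFD and 13.4% to 20.4% in RD, while the sum averages 1282 in HFD and 1279 CPM per kilobase in RD.

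TRHR encodes the receptor for thyrotropin-releasing hormone (Trhr, ENSMUSG00000038760.14, chromosome 15, 44196135 to 44235912, plus strand). Per length it is the least abundant of the 5 genes (4.49 ± 0.11 CPM per kilobase in HFD and 3.12 ± 0.46 in RD), with 227, 241 and 244 reads in HFD and 173, 202 and 174 reads in RD. These were 15.7, 16.4 and 16.5 CPM in HFD and 10.6, 13.2 and 10.1 CPM in RD, and each HFD library lay above RD replicate 2, the highest of its group. Its log2 change was 0.53 ± 0.14 (95% interval 0.22 to 0.83, adjusted p = 0.039 by edgeR). With 1 library left out TRHR was called in 1 of 6 fits, that without RD replicate 2, and in the other 5 the adjusted p was up to 0.14 at log2 changes of 0.44 or more. With the replicate number as a block it was not called either (adjusted p = 0.075). TRHR is also known from lactotrophs, so thyrotrophs need not be its sole source in the gland.

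TRH itself, the ligand, held 5, 2 and 0 reads in HFD and 0 in each RD library, and did not pass the filter. Of 17 tested genes of the ligand's degradation and the receptor's signalling, 0 were called by edgeR, DESeq2 or limma-voom, 4 had an unadjusted p under 0.05 by edgeR, and their median log2 change was -0.0069. Among them GNAQ, the G protein subunit that couples the receptor to phospholipase C, was at 151 ± 2.84 CPM in HFD and 146 ± 1.65 CPM in RD (adjusted p = 0.68 by edgeR). The 4 pointed in both directions: PLCB1, a phospholipase C, had a log2 change of 0.23 ± 0.08 and PRKCE, a protein kinase C, of 0.24 ± 0.08. PRKCA, another protein kinase C, had one of -0.24 ± 0.09 and ARRB2, an arrestin, of -0.35 ± 0.12 (adjusted p of the 4 from 0.070 to 0.13 by edgeR). With other scalings edgeR called PRKCE (upper-quartile or library size only, adjusted p down to 0.033) and PLCB1 (library size only, adjusted p = 0.047). These 4 were chosen after their values were seen.

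GATA2 encodes the zinc finger factor of thyrotrophs and gonadotrophs (Gata2, ENSMUSG00000015053.14, chromosome 6, 88193891 to 88207032, plus strand). It was at 74.3, 95.8 and 94.0 CPM in HFD and at 68.2, 46.2 and 64.4 CPM in RD. The groups came close at HFD replicate 1 and RD replicate 1, and RD replicate 2 was the lowest library. The log2 change was 0.56 ± 0.15 (95% interval 0.23 to 0.89, adjusted p = 0.040 by edgeR). It ceased to be called when HFD replicate 2 (adjusted p = 0.15), HFD replicate 3 (0.16) or RD replicate 2 (0.082) was left out, and without the last the log2 change was 0.40. Nor was it called with the replicate number as a block (adjusted p = 0.075). GATA2 was the only GATA family gene past the filter. GATA1, GATA3, GATA4, GATA5 and GATA6 held between 0 and 16 reads per library, and the cofactors ZFPM1 and ZFPM2 were called by none of the 3 tools (0 with an unadjusted p under 0.05).

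EYA3 encodes the coactivator and phosphatase (Eya3, ENSMUSG00000028886.15, chromosome 4, 132638987 to 132724765, plus strand). It was at 97.0, 95.7 and 84.5 CPM in HFD and at 92.4, 96.0 and 93.4 CPM in RD, and the groups overlapped. The log2 change was -0.024 ± 0.076 (95% interval -0.19 to 0.15, adjusted p = 0.88 by edgeR), which in folds spans 0.87 to 1.11. It had no stable direction: it was above 0 with upper-quartile or library-size scaling and without HFD replicate 3, and below 0 in the other 13 of 16 settings. TEF, the clock-controlled bZIP factor that works with EYA3, was lower (log2 change -0.25 ± 0.07, adjusted p = 0.046 by edgeR). TEF stayed lower in all 16 settings (log2 change -0.30 to -0.18), but its call was lost in 8 of them (adjusted p up to 0.18). MTNR1A, the melatonin receptor that marks the pars tuberalis, held 0, 4 and 5 reads in HFD and 0, 2 and 10 reads in RD.

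Among 8 paralogs and partners of EYA3 tested, 1 was called. DACH2, a corepressor of the family, was at 21.5, 17.1 and 17.6 CPM in HFD and at 10.2, 8.53 and 5.55 CPM in RD. Its log2 change was 1.21 ± 0.21 (adjusted p = 0.0076 by edgeR), and it was called in all 16 settings.

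**Figure D4:**
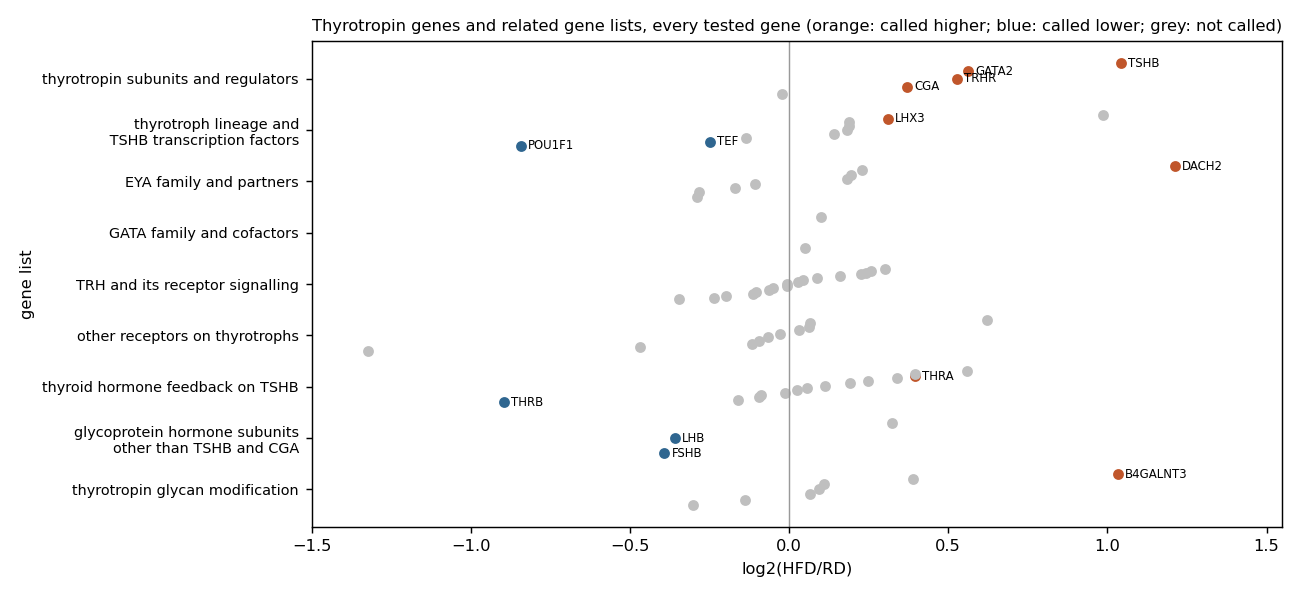
Log2(HFD/RD) from edgeR (x axis) of every tested gene of the 5 thyrotropin genes and 8 related lists (rows), with orange for called higher, blue for called lower and grey for not called. TSHB, DACH2 and B4GALNT3 lie near or above 1, POU1F1 and THRB near -0.9, and no gene of TRH receptor signalling is called with TMM scaling.

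Of 9 tested transcription factors of the thyrotroph lineage and the TSHB promoter, 1 was higher and 2 lower, with a median log2 change of 0.18. POU1F1, which acts with GATA2 on Tshb, moved opposite to it, at 298, 246 and 276 CPM in HFD and 431, 498 and 542 CPM in RD. The call (log2 change -0.84 ± 0.10, adjusted p = 0.0014 by edgeR) held in all 16 settings of the fit. POU1F1 also serves somatotrophs and lactotrophs. Their hormone genes GH1 and PRL were lower (log2 changes -0.83 ± 0.07 and -0.41 ± 0.08), while the lactotroph marker ANGPT1 was higher (1.27 ± 0.19, adjusted p of the 3 up to 0.013 by edgeR). LHX3, a LIM homeodomain factor of the developing gland, was at 120 ± 4.80 CPM in HFD and 96.6 ± 6.85 CPM in RD (log2 change 0.31 ± 0.08, adjusted p = 0.030 by edgeR). The LHX3 call was lost in 5 of 16 settings, those without an HFD library among them.

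Of 14 tested genes of thyroid hormone feedback, 1 was higher and 1 lower, with a median log2 change of 0.08. The receptor gene THRB, the main mediator of feedback on Tshb, was at 169, 163 and 164 CPM in HFD and 237, 272 and 415 CPM in RD. THRA was at 136, 128 and 138 CPM in HFD and 111, 103 and 91.9 CPM in RD. By edgeR, leaving out HFD replicate 2 or 3 ended the call of THRB (adjusted p up to 0.063), and leaving out any HFD library that of THRA (up to 0.080). Of 10 other receptors known from thyrotrophs, including those for somatostatin, dopamine and leptin, 0 were called by edgeR (1 with an unadjusted p under 0.05) or limma-voom, and the median log2 change was -0.05. By DESeq2 1 was called, the somatostatin receptor gene SSTR2 (edgeR log2 change -1.32 ± 0.42, adjusted p = 0.073), which was at 9.01 CPM in RD replicate 3 and at 3.43 CPM or less in every other library. Without RD replicate 1 edgeR called SSTR2, TSHR (the thyrotropin receptor) and GHSR (the ghrelin receptor), and without RD replicate 2 SSTR2.

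Thyrotropin carries sulfated N-glycans that set its clearance. Of 7 tested genes for modification of its glycans, the sialyltransferase genes ST6GAL1, ST3GAL3 and ST3GAL6 among them, 1 was called. B4GALNT3, one of the enzymes that add the N-acetylgalactosamine to be sulfated, was at 111, 115 and 101 CPM in HFD and 45.1, 82.9 and 31.8 CPM in RD (log2 change 1.03 ± 0.27, adjusted p = 0.039 by edgeR). Its paralog B4GALNT4 was at 30.3 ± 1.44 CPM in HFD and 28.4 ± 0.86 CPM in RD, and the sulfotransferase gene CHST8 at 36.1 ± 11.2 CPM in HFD and 39.7 ± 6.74 CPM in RD. Neither was called. B4GALNT3 was not called by DESeq2, nor by edgeR when any HFD library or RD replicate 1 was left out (adjusted p up to 0.13). Of the remaining glycoprotein hormone subunits, GPHA2 (log2 change 0.32 ± 0.39) missed the threshold, and GPHB5 did not pass the filter.

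The genes with profiles most like those of the 5 were found by the root mean square difference of centred log2 CPM over the 6 libraries, among 12757 candidates. For TSHB these were CPNE9 (0.16), ESPNL (0.16) and LRRC36 (0.19), all at 6.22 CPM or less in HFD. For CGA they were NT5C1A (0.03), TPST1 (0.04), a protein tyrosine sulfotransferase, and PERP (0.04). For TRHR they were SARDH (0.05), PDK1 (0.05), a pyruvate dehydrogenase kinase, and ECM2 (0.06). For GATA2 they were PLCH2 (0.08), SLC29A4 (0.08) and FUT4 (0.08), and for EYA3 NCOA2 (0.02), PRPF39 (0.02) and KIFAP3 (0.03). The closest neighbour of TSHB was thus farther from it than that of any of the other 4 genes from theirs. The measure is not scaled to the size of a gene's own change, which was largest for TSHB among the 5.

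**Figure D5:**
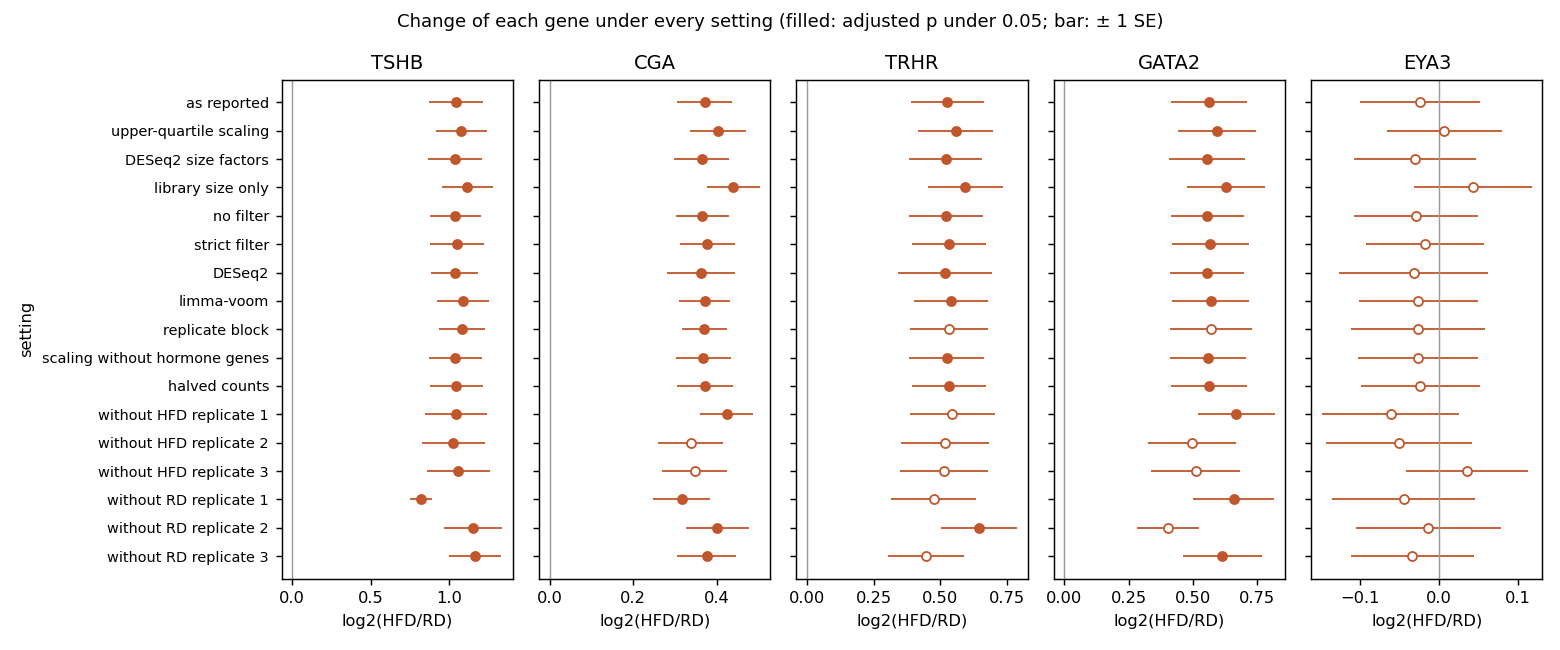
Log2(HFD/RD) ± 1 SE (x axis, own scale per gene) of the 5 genes as reported and under 16 other settings (rows), filled where the adjusted p was under 0.05. TSHB is filled in every row, CGA in all but 2 of the others, GATA2 in 12 and TRHR in 10 of 16, and EYA3 in none.

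Totals of the listed rows were 14185372 to 14384933 counts in HFD and 15702214 to 18111345 in RD, and on the first principal component (48.3% of the variance) RD replicate 3 lay farthest out. Without it the log2 changes were 1.16 for TSHB, 0.38 for CGA, 0.44 for TRHR and 0.62 for GATA2. Markers of other cells, as summed CPM, were 1198 to 1262 in HFD and 1472 to 1639 in RD for gonadotrophs (2 of 7 called higher, 3 lower). The gonadotroph sum is mostly FSHB (mean 708 CPM in HFD and 929 in RD) and LHB (247 in HFD and 317 in RD). Called higher were NR5A1 and FOXP2 (log2 changes 0.49 ± 0.11 and 0.68 ± 0.12). Lower were LHB, FSHB and GNRHR (log2 change of GNRHR -0.81 ± 0.14). The adjusted p of NR5A1, FOXP2 and GNRHR was up to 0.022 by edgeR. The call was lost in 4 of 16 settings for NR5A1, in 2 for FOXP2 and in 0 for GNRHR. Somatotroph markers summed to 36885 to 39916 in HFD and 59336 to 72129 in RD (2 of 3 lower), and lactotroph markers to 9620 to 12234 in HFD and 13706 to 15175 in RD (1 higher, 1 lower of 2). The somatotroph sum is mostly GH1 (mean 38005 CPM in HFD and 67336 in RD). The lactotroph sum is mostly PRL (mean 10919 CPM in HFD and 14482 in RD). ANGPT1, the lactotroph marker called higher, was at 93.7 CPM in HFD and 39.0 CPM in RD. Corticotroph and melanotroph markers, mostly POMC, summed to 6142 to 14342 in HFD and 5919 to 10027 in RD (1 of 5 higher). Stem and folliculostellate markers summed to 121 to 137 in HFD and 105 to 115 in RD (1 of 4 higher), with SOX2 and SOX9 not called. Sums for endothelial (313 to 329 in HFD, 291 to 313 in RD), immune (57.7 to 66.1 in HFD, 50.9 to 64.3 in RD) and posterior lobe markers (8.39 to 18.5 in HFD, 13.1 to 22.7 in RD) held 0 called genes by edgeR, DESeq2 or limma-voom, and of them CDH5 alone had an unadjusted p under 0.05 by edgeR (log2 change 0.26 ± 0.10). The red cell marker ALAS2 was at 72.2 ± 33.1 CPM in HFD and 73.6 ± 17.4 CPM in RD. The part of these cells in the results for the thyrotropin genes was not tested.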

How the data were processed

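The authors deposited raw counts, whole numbers for each of 16736 gene rows and 6 libraries, per the file headers. The genome build was mm10, per the submitters' processing notes; no aligner, counting tool or annotation is named in the sources used here. In each library 64.0% to 67.0% of the counts of 1 to 10 were even, so both mates of a pair may have been counted, and no counting intervals are given.

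The test was that of edgeR 4.0.16 under R 4.3.3 (quasi-likelihood, TMM, minimum count 10, minimum total 15, an intercept and diet, two-sided, Benjamini-Hochberg, threshold 0.05). Standard errors are the size of the log2 change over the square root of F. The method was tested on simulated data. Alternatives were other scalings and filters, DESeq2 1.42.0, limma-voom (limma 3.58.1), halved counts, a replicate block and each library left out. The 5 genes and all lists were chosen with earlier results of these data known. Genes named are the 5, LHB, FSHB and the 3 genes nearest each profile. Called members of lists other than cell markers are named, at most 4 per list. Of the cell markers, the leading ones and some of the called ones are named. Others are named for their role. Some list genes are not reported here and were left out of the counts. Symbols on 2 rows (43) were kept out of lists. Coordinates and lengths come from GENCODE M21 and promoter windows from RefSeq (GRCm38.p6). Libraries of a group were not identical.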

Additional observations from a re-analysis of the deposited data

How the results depend on the processing

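Of the 4 called genes, TSHB was called in all 16 other settings (log2 change 0.82 to 1.16), CGA in 14 (0.32 to 0.44), GATA2 in 12 (0.40 to 0.67) and TRHR in 10 (0.44 to 0.64), always in the same direction. In the 10 settings that kept all libraries, the calls of TRHR and GATA2 were lost in 1, the replicate block. With 1 library left out, the number of the 5 genes called ranged from 1 to 3 and that of all genes from 431 to 1523, where fewer libraries enter the fit; log2 changes then ranged from 0.82 to 1.16 for TSHB, 0.32 to 0.42 for CGA, 0.44 to 0.64 for TRHR and 0.40 to 0.67 for GATA2. The change of EYA3 was 0.0068 with upper-quartile scaling, 0.043 with library size as the only scaling and 0.036 without HFD replicate 3; with 1 library left out it ranged from -0.061 to 0.036. With library size only, 72.5% of calls were higher in HFD, against 56.0% as reported. Correlations of residuals between same-numbered libraries were -0.13, 0.0037 and -0.097, and only RD replicate 2 correlated best with its own number. The residuals were centred within groups of 3 libraries and so constrain each other. These correlations therefore cannot decide whether the replicate numbers pair the libraries. With the replicate block 808 genes and 2 of the 5 were called, against 1453 genes and 4, and TRHR (0.53, adjusted p = 0.075) and GATA2 (0.57, adjusted p = 0.075) were not; the cause was not tested. The log2 ratios of TSHB to CGA, LHB and FSHB were positive in difference in every setting run. TRHR rests on 173 to 244 reads per library, yet with halved counts its SE was 0.14, as reported, and it was still called (adjusted p = 0.038).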
